A study of Danio rerio with 12 samples.

Results

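The genes described here are the Wnt ligands of the zebrafish, their receptors and co-receptors, the secreted antagonists and agonists that set how much ligand or receptor is active, and a small group of intracellular and nuclear genes of the pathway. They were chosen by symbol, as every gene whose name in the gene name table begins as a wnt, fzd, dkk, sfrp, axin, rspo or notum gene or is frzb, wif1, lef1, lrp5, lrp6, ror1 or ror2, or begins with tcf7. Of 32520 genes in the count files, 70 had such a symbol, and the 44 of them with at least 10 counts in at least 3 libraries were kept. The kept genes comprised 9 of 26 ligands, 12 of 14 Frizzled receptors, 4 of 4 co-receptors and receptor kinases, 11 of 15 secreted antagonists, 3 of 4 agonists and 5 of 7 intracellular and nuclear genes.

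RNA-seq was carried out on ventricles of adult zebrafish, wild type or mutant for mvp (mvp-/-), the gene of the major vault protein, after sham surgery or at 7 days after resection of the ventricular apex (7dpa). There were 3 libraries in each of 4 groups, wild-type sham, wild-type 7dpa, mvp-/- sham and mvp-/- 7dpa, made from tissue below the plane of surgery. The comparisons ask how these genes changed with resection in either genotype, how the genotypes differed after sham surgery and at 7dpa, and whether the injury responses differed. All lines were kept on an AB background, and the mutants carry a CRISPR-Cas9 deletion of mvp in every cell, a single line. How many hearts went into each library is not given in the sources used here, so the spread between libraries, and every p-value below, may not measure the spread between animals.

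Wnt proteins are secreted, lipid-modified ligands that bind Frizzled receptors together with Lrp5 or Lrp6. In the canonical branch this stops the Axin complex from degrading beta-catenin, which then acts with Tcf and Lef factors on target genes such as axin2, while Ror kinases serve branches that do not need beta-catenin. Some but not all Dickkopf proteins block Lrp5 and Lrp6. Secreted Frizzled-related proteins and Wif1 bind the ligands, Notum removes their lipid, and R-spondins keep Frizzled receptors at the cell surface. In the zebrafish heart the pathway is known from the formation of the organ and from studies of its regrowth after injury, in which secreted Wnt inhibitors have been examined.

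Total counts ranged from 21356163 to 26684651 per library. CPM values are counts scaled to a common library size. A floor of 3 counts stands for 0.112 to 0.140 CPM when scaled by total counts alone. All other CPM values given here were also scaled by edgeR's TMM factors. On that scale 3 counts stand for more CPM than this in each sham library and for less in each 7dpa library. Such floors cover counting error only. The targeted gene mvp had 3346 to 5405 counts in the wild-type libraries, 91 to 108 in the mvp-/- sham and 429 to 475 in the mvp-/- 7dpa libraries, so it was low but not at 0 in the mutant. These mutant counts were higher at 7dpa, with a log2 fold change of 1.84 (edgeR adjusted p = 1.3e-06), and their source was not tested. No pair of libraries agreed within sampling noise. Wild-type 7dpa replicate 1 stood apart from the other replicates of its group, with a chi-square per gene of 92.9 and 95.5 against them, beside 2.20 between those 2 and up to 10.8 between replicates of any other group. The biological coefficient of variation was 26.6% in the wild-type 7dpa group and 4.77% to 7.86% in the other groups. Some of the results that rest on this library are therefore given with and without it, and the others only with it. Summed cardiomyocyte markers were at 40041 to 48027 CPM in wild-type sham and 29098 to 37565 CPM in wild-type 7dpa libraries. In mvp-/- hearts they were at 41533 to 44840 CPM after sham surgery and 33620 to 34126 CPM at 7dpa. Of these 6 markers, 2 were called higher and 3 lower with resection in the wild type, and 2 lower in the mutant. The neutrophil markers did not exceed 1.24 CPM in sum. In bulk tissue, fewer cells of a type and less RNA per cell cannot be told apart.

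With all libraries fitted together, 28 of the 44 genes were called with resection in the wild type and 16 in the mvp-/- hearts. With only the groups compared in each fit, 24 were called in either genotype, so that the smaller number in the mutant depended on the fit. Genes were called at an adjusted p under 0.05 in edgeR's quasi-likelihood test, fitted to 16604 genes, all 44 included. Differences between groups are given as log2 fold changes throughout. In the wild type, 19 of the 44 were higher and 9 lower at 7dpa than after sham surgery, where 31.6% of all tested genes were called higher and 27.8% lower. In mvp-/- hearts 12 were higher and 4 lower at 7dpa, against 12.9% and 13.4% of all genes. After sham surgery 12 were higher and 9 lower in the mutant than in the wild type, against 25.3% and 24.2% of all genes, shares close to those of the 44. At 7dpa 2 were higher and 5 lower in the mutant, against 8.94% and 10.6% of all genes. The injury response itself differed for 14, of which 5 had a higher and 9 a lower log2 fold change in the mutant. Of all genes 15.2% and 19.9% did, shares again close to those of the 44.

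Over the 44 genes the median log2 fold change with resection was 0.49 in wild-type hearts, beside 0.0078 over all tested genes. In the mutant the median was 0.16, beside 0.018. The median size of the change, without its sign, was 0.85 beside 0.55 in the wild type and 0.43 beside 0.29 in the mutant. For the sham groups of the genotypes the median size was 0.43 beside 0.48 over all genes. The 2 injury responses, the sham comparison and the difference of responses use the same sham libraries, so a gene that differed between the sham groups enters several of these comparisons at once, and the values are set side by side below. Genes with low counts could reach the minimum through the group in which they were high. sfrp2 did so in 4 libraries, wnt7ba in 8, none of them mvp-/- sham, and dkk1b, notum2, wnt16 and sfrp1 (ENSDARG00000057678) in 9. These counts and medians therefore describe the genes kept and are not a test.

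Calls also changed without wild-type 7dpa replicate 1 in comparisons of which it is no sample. All groups share 1 estimate of the spread in the fit. Without that library 23 of the 44 were called in the mutant, 15 higher and 8 lower, where 20.8% of all tested genes were called higher and 20.4% lower, and the 16 calls made with all libraries were kept. With only the mvp-/- groups fitted the numbers were 16 higher and 8 lower, against 23.4% and 22.1%, and with only the wild-type groups 17 and 7, against 27.1% and 23.4%. The 7 genes added without that library kept nearly the same fold changes, with log2 values of 0.54 for wnt4, 0.53 for wnt7a (ENSDARG00000044827), 0.24 for sfrp5, -0.24 for wnt2b, -0.46 for fzd4, -0.58 for fzd5 and -0.78 for fzd9 (ENSDARG00000014673). Of the wild-type responses 20 were then higher and 12 lower, against 35.2% and 31.9%, with fzd2 at -0.31, ror2 at -0.14, rspo1 at -0.49, tcf7l1 at -0.23, sfrp2 at 1.42 and sfrp1 (ENSDARG00000035521) at 0.75 among those added. For the sham groups 13 were higher and 11 lower in the mutant without that library, against 29.6% of all genes in either direction, with lrp6 at 0.97, fzd7 (ENSDARG00000060004) at -0.38 and fzd9 (ENSDARG00000014673) at -0.68 added. With only the sham groups fitted 12 were higher and 10 lower, against 30.4% and 31%. The statements below that a gene did not pass the test are those of the fit to all 12 libraries.

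**Figure D1:**
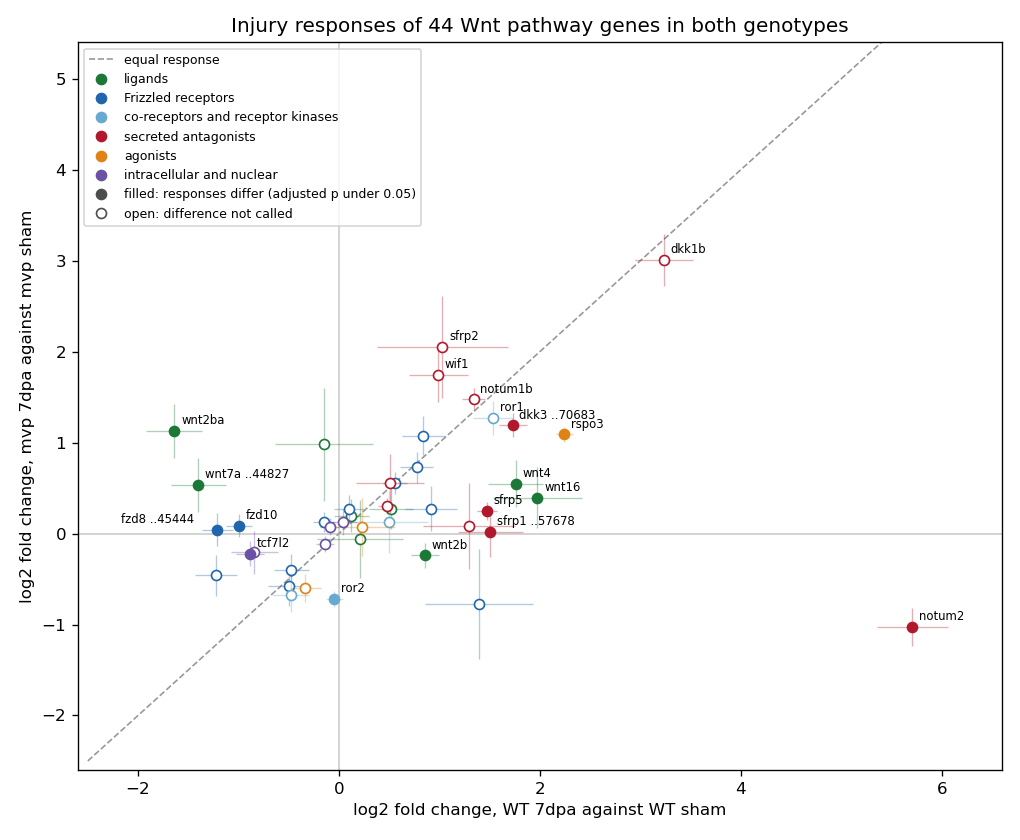
Log2 fold change with resection in the wild type (x axis) and in mvp-/- hearts (y axis) for the 44 genes, coloured by role, with bars of 1 SE. Filled points are the 14 genes whose responses differed; dkk1b lies on the dashed line of equal response (3.24 and 3.01), whereas notum2 lies far below it (5.71 and -1.02) and wnt2ba has opposite signs (-1.64 and 1.13).

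Among the 9 ligands, wnt2b, wnt4 and wnt16 were higher and wnt2ba and wnt7a lower after resection in the wild type. Of all genes, 31.6% were called higher and 27.8% lower there. In the mutant 1 of the 9, wnt2ba, passed the test with resection, and it rose, against 12.9% of all genes higher and 13.4% lower. Without wild-type 7dpa replicate 1, 3 were higher and 1 lower in the mutant, against 20.8% and 20.4%. Between the sham groups, which enter these comparisons as well, wnt2b, wnt4 and wnt16 were higher and wnt2ba, wnt7a and wnt7ba lower in the mutant. Of all genes, 25.3% were called higher and 24.2% lower between these groups. wnt2b, the ligand with the most counts, was at 7.41, 7.69 and 7.57 CPM in the wild-type sham and 17.5, 11.8 and 11.7 CPM in the wild-type 7dpa libraries. wnt2b was at 16.2, 15.8 and 15.4 CPM in the mvp-/- sham and 14.0, 12.7 and 13.5 CPM in the mvp-/- 7dpa libraries. Its wild-type libraries did not overlap between sham and 7dpa, and the mvp-/- sham libraries lay above every wild-type sham library. The log2 fold change with resection was 0.86 ± 0.14 (SE, edgeR adjusted p = 0.00015) in wild-type and -0.24 ± 0.13 (SE, edgeR adjusted p = 0.21) in mvp-/- hearts. Between the sham groups it was 1.06 ± 0.14 (SE, edgeR adjusted p = 3.7e-05).

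wnt4 was at 3.81, 5.10 and 3.96 CPM in the wild-type sham and 7.44, 17.5 and 18.9 CPM in the wild-type 7dpa libraries. wnt4 was at 9.95, 11 and 11.8 CPM in the mvp-/- sham and 16.8, 16.6 and 14.6 CPM in the mvp-/- 7dpa libraries. Wild-type 7dpa replicate 1 was well below the other replicates of its group, yet above every wild-type sham library. Its log2 fold change was 1.76 ± 0.28 (SE, edgeR adjusted p = 0.00012) with resection in wild-type hearts. It was higher in mvp-/- than in wild-type sham hearts by 1.34 ± 0.28 (SE, edgeR adjusted p = 0.0014), while a log2 fold change of 0.55 in the mutant did not pass the test (edgeR adjusted p = 0.13). The summed macrophage markers, of which 8 of 13 genes had enough counts to be tested and all 8 were higher at 7dpa in the wild type, were at 146 CPM in wild-type 7dpa replicate 1 and at 407 and 400 CPM in the others. They were at 41.6 to 43.6 CPM in wild-type sham, 83.4 to 92.6 in mvp-/- sham and 184 to 190 in mvp-/- 7dpa libraries, where 3 of the 8 were higher with resection. Their part in the values of wnt4 was not tested.

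wnt16, which in zebrafish embryos is needed for the formation of blood stem cells, was close to the floor in wild-type sham hearts, with 1, 7 and 4 counts. Scaled, it was at 0.0537, 0.307 and 0.206 CPM in the wild-type sham and 0.803, 0.720 and 0.828 CPM in the wild-type 7dpa libraries. wnt16 was at 1.23, 0.707 and 0.833 CPM in the mvp-/- sham and 0.853, 1.36 and 1.43 CPM in the mvp-/- 7dpa libraries. The wild-type sham libraries lay below all other libraries, and the mvp-/- sham libraries overlapped both 7dpa groups. Its log2 fold change was 1.98 ± 0.44 (SE, edgeR adjusted p = 0.0018) with resection in the wild type, 2.21 ± 0.45 (SE, edgeR adjusted p = 0.0012) between the sham groups and 0.39 ± 0.34 (SE, edgeR adjusted p = 0.43) in the mutant.

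wnt2ba went the other way in the wild type. It was at 5.80, 4.26 and 4.79 CPM in the wild-type sham and 2.51, 1.08 and 1.15 CPM in the wild-type 7dpa libraries. wnt2ba was at 1.13, 1.41 and 1.48 CPM in the mvp-/- sham and 2.83, 2.60 and 3.39 CPM in the mvp-/- 7dpa libraries. Every wild-type 7dpa library was lower than every wild-type sham library, and every mvp-/- 7dpa library was higher than every mvp-/- sham library. With resection its log2 fold change was -1.64 ± 0.28 (SE, edgeR adjusted p = 0.00023) in wild-type and 1.13 ± 0.30 (SE, edgeR adjusted p = 0.013) in mvp-/- hearts. The mutant differed from the wild type by -1.87 ± 0.29 (SE, edgeR adjusted p = 0.00015) after sham surgery and by 0.89 ± 0.28 (SE, edgeR adjusted p = 0.041) at 7dpa.

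wnt7a (ENSDARG00000044827) was at 4.08, 4.44 and 5.35 CPM in the wild-type sham and 0.873, 2.32 and 2.07 CPM in the wild-type 7dpa libraries. wnt7a was at 1.44, 1.46 and 1.39 CPM in the mvp-/- sham and 1.74, 2.19 and 2.29 CPM in the mvp-/- 7dpa libraries. The wild-type sham libraries were the highest of all, with the other 3 groups between 0.873 and 2.32 CPM. Its log2 fold changes with resection were -1.40 ± 0.27 (SE, edgeR adjusted p = 0.00066) in wild-type and 0.53 ± 0.30 (SE, edgeR adjusted p = 0.21) in mvp-/- hearts. The sham groups differed by -1.69 ± 0.29 (SE, edgeR adjusted p = 0.0003), with the mutant lower. wnt7ba, of which no library held more than 1.15 CPM, was at 1.07, 0.527 and 0.618 CPM in wild-type sham and 0.0513, 0.354 and 0.278 CPM in mvp-/- sham libraries, a difference of -1.65 ± 0.60 (SE, edgeR adjusted p = 0.035). At 7dpa wnt7ba was at 1.15, 0.440 and 0.382 CPM in wild-type and 0.349, 0.495 and 0.532 CPM in mvp-/- libraries. wnt11 and wnt5b, ligands known mainly from beta-catenin-independent signalling, and wnt6 passed no test. Their means per group were 3.82 to 4.73 CPM for wnt11, 1.92 to 2.90 for wnt5b and 0.847 to 1.003 for wnt6.

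Some ligand calls were lost when 1 library, any of several, was left out. The sham difference of wnt7ba was lost without wild-type sham replicate 1 or 3 or mvp-/- sham replicate 1 or 3 and under a replicate block (log2 -2.08 to -1.201 over the 12 left-out fits), the rise of wnt2ba in the mutant without mvp-/- sham replicate 1 or mvp-/- 7dpa replicate 3 (log2 1.01 to 1.203 over the 12 left-out fits), and its difference at 7dpa in every fit that left out 1 library except those without wild-type 7dpa replicate 1 and under a fit of only the groups compared (log2 0.68 to 1.37 over the 12 left-out fits).

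**Figure D2:**
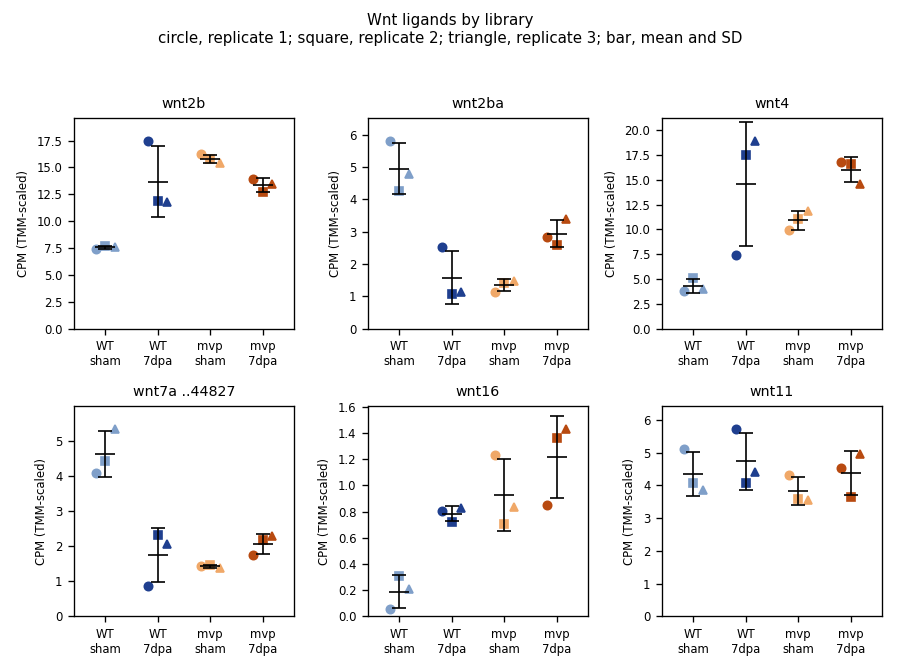
CPM (TMM-scaled, linear axes from 0) of 6 Wnt ligands in each of the 12 libraries by group, with the mean and SD of 3 libraries. wnt2b, wnt4 and wnt16 are lowest and wnt2ba and wnt7a highest in the wild-type sham libraries, while wnt11 stays between 3.56 and 5.73 CPM.

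Of the 12 Frizzled receptors, 5 were higher and 4 lower after resection in the wild type, not far from the 31.6% and 27.8% of all genes. In the mutant 3 were higher and none was lower, against 12.9% and 13.4% of all genes. Without wild-type 7dpa replicate 1, however, 3 were lower, fzd4, fzd5 and fzd9 (ENSDARG00000014673), against 20.4% of all genes. Both fzd7 genes, known from cell movements of the gastrula, and fzd9 (ENSDARG00000035185) were higher with resection in both genotypes. fzd4, fzd8 and fzd10 were lower after resection in the wild type and did not pass the test in the mutant, and the responses differed for fzd8 and fzd10. For fzd4 the difference of responses was 0.76 ± 0.31 (SE, edgeR adjusted p = 0.073), which did not pass the test, and 1.118 without wild-type 7dpa replicate 1 (edgeR adjusted p = 1.3e-05).

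fzd2, the Frizzled gene with the most counts, was at 37.9, 38.6 and 43.8 CPM in the wild-type sham and 44.3, 31.9 and 32.3 CPM in the wild-type 7dpa libraries. fzd2 was at 30.5, 30.9 and 32.1 CPM in the mvp-/- sham and 35.1, 33.4 and 33.8 CPM in the mvp-/- 7dpa libraries. It did not pass the test with resection in either genotype, and after sham surgery it was lower in the mutant, at -0.36 ± 0.11 (SE, edgeR adjusted p = 0.017). fzd4, which in mammals is also the receptor of Norrin in retinal vessels, was at 16.7, 16.6 and 18 CPM in the wild-type sham and 10.7, 5.68 and 5.67 CPM in the wild-type 7dpa libraries. fzd4 was at 6.41, 6.06 and 5.09 CPM in the mvp-/- sham and 4.96, 4.13 and 3.64 CPM in the mvp-/- 7dpa libraries. The wild-type sham libraries lay above all others and the mvp-/- 7dpa libraries below all others. With resection the log2 fold change of fzd4 was -1.22 ± 0.21 (SE, edgeR adjusted p = 0.00026) in wild-type and -0.46 ± 0.23 (SE, edgeR adjusted p = 0.16) in mvp-/- hearts. Against the wild type the mutant was at -1.55 ± 0.22 (SE, edgeR adjusted p = 6.5e-05) after sham surgery and at -0.79 ± 0.22 (SE, edgeR adjusted p = 0.025) at 7dpa, lower in both.

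fzd8 (ENSDARG00000045444) was at 7.41, 7.73 and 7.21 CPM in the wild-type sham and 3.35, 3.08 and 3.21 CPM in the wild-type 7dpa libraries. fzd8 was at 1.54, 1.87 and 1.80 CPM in the mvp-/- sham and 2.25, 1.53 and 1.59 CPM in the mvp-/- 7dpa libraries. Its 4 groups fell into 3 levels, with wild-type sham highest, wild-type 7dpa next and the mvp-/- groups lowest and overlapping. With resection its log2 fold change was -1.21 ± 0.15 (SE, edgeR adjusted p = 1.9e-05) in wild-type and 0.04 ± 0.18 (SE, edgeR adjusted p = 0.88) in mvp-/- hearts. The mutant was lower than the wild type, with log2 fold changes of -2.10 ± 0.17 (SE, edgeR adjusted p = 3.4e-07) after sham surgery and -0.84 ± 0.16 (SE, edgeR adjusted p = 0.0035) at 7dpa.

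fzd10 was at 38.7, 40.4 and 38.5 CPM in the wild-type sham and 24.5, 17.8 and 16.7 CPM in the wild-type 7dpa libraries. fzd10 was at 22.7, 21.2 and 21.1 CPM in the mvp-/- sham and 22.2, 20.9 and 25.8 CPM in the mvp-/- 7dpa libraries. The wild-type sham libraries stood at nearly the same level, above all the rest. With resection fzd10 had log2 fold changes of -0.99 ± 0.13 (SE, edgeR adjusted p = 2e-05) in wild-type and 0.09 ± 0.13 (SE, edgeR adjusted p = 0.66) in mvp-/- hearts, with a sham difference of -0.86 ± 0.13 (SE, edgeR adjusted p = 0.0001).

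The second fzd9 gene (ENSDARG00000014673) differed most between libraries of 1 group. It was at 9.83, 8.74 and 10.3 CPM in the wild-type sham and 3.67, 36.3 and 36.1 CPM in the wild-type 7dpa libraries. fzd9 was at 6.36, 6.01 and 5.78 CPM in the mvp-/- sham and 3.64, 4.21 and 2.74 CPM in the mvp-/- 7dpa libraries. Wild-type 7dpa replicates 2 and 3 were above every other library, and replicate 1 of the same group was below every sham library. Its log2 fold change in the wild type was 1.39 ± 0.54 (SE, edgeR adjusted p = 0.038), a call that was lost in every fit that left out 1 library except those without wild-type 7dpa replicate 1 or mvp-/- 7dpa replicate 3 and under DESeq2's Wald test, a replicate block or a fit of only the groups compared (log2 1.06 to 1.92 over the 12 left-out fits). The macrophage marker sum given with wnt4 was lower in wild-type 7dpa replicate 1 than in the other replicates of its group. It was still above that of every sham library. In mvp-/- libraries that sum was higher at 7dpa than after sham surgery, whereas this fzd9 gene was lower. Fibroblast and matrix, smooth muscle and erythrocyte sums were highest in wild-type 7dpa replicate 1 within its group, at 3631, 696 and 511 CPM. So were the cardiomyocyte, epicardial, skin and gill, valve, and neuron and glia sums, at 37565, 394, 667, 75.7 and 5.73 CPM. The endothelial, thrombocyte, neutrophil and liver sums were lowest in that library within the group. The part of these cell populations in this result was not tested. At 7dpa this fzd9 gene was lower in the mutant, with a log2 fold change of -2.84 ± 0.58 (SE, edgeR adjusted p = 0.0045), and of -3.38 without wild-type 7dpa replicate 1. That call was lost in a fit of only the 2 groups compared.

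fzd9 (ENSDARG00000035185) was at 6.02, 8.08 and 6.28 CPM in the wild-type sham and 17.5, 9.79 and 9.36 CPM in the wild-type 7dpa libraries. fzd9 was at 5.23, 6.06 and 5.97 CPM in the mvp-/- sham and 11.6, 11.5 and 13.4 CPM in the mvp-/- 7dpa libraries. Here wild-type 7dpa replicate 1 was the highest of all libraries. It rose by 0.84 ± 0.21 (SE, edgeR adjusted p = 0.0041) in the wild type and by 1.08 ± 0.22 (SE, edgeR adjusted p = 0.0027) in the mutant. The log2 fold changes of fzd7 (ENSDARG00000027589) were 0.55 ± 0.12 (SE, edgeR adjusted p = 0.0015) in wild-type and 0.55 ± 0.12 (SE, edgeR adjusted p = 0.0044) in mvp-/- hearts. Those of fzd7 (ENSDARG00000060004) were 0.77 ± 0.16 (SE, edgeR adjusted p = 0.0012) and 0.73 ± 0.17 (SE, edgeR adjusted p = 0.0062). fzd1, at most 1.53 CPM, was higher by 0.92 ± 0.26 (SE, edgeR adjusted p = 0.0081) in the wild type with resection and by 0.70 ± 0.27 (SE, edgeR adjusted p = 0.045) in mvp-/- than in wild-type sham hearts, and fzd3 (ENSDARG00000021664) was lower in the wild type, at -0.47 ± 0.17 (SE, edgeR adjusted p = 0.031). fzd5 and fzd6 passed no test. The sham difference of fzd1 was lost in every fit that left out 1 library except those without wild-type sham replicate 2 or wild-type 7dpa replicate 1 and under DESeq2's Wald test, no filter on low counts, a replicate block or a fit of only the groups compared (log2 0.59 to 0.88 over the 12 left-out fits). The call of fzd3 was lost without wild-type sham replicate 3 or wild-type 7dpa replicate 1 or 3 and under DESeq2's Wald test, no filter on low counts or a fit of only the groups compared (log2 -0.57 to -0.34 over the 12 left-out fits), that of fzd2 between the sham groups without wild-type sham replicate 3 or mvp-/- sham replicate 1 or 2 (log2 -0.401 to -0.30 over the 12 left-out fits) and that of fzd4 at 7dpa without mvp-/- 7dpa replicate 2 or 3 and under a fit of only the groups compared (log2 -0.96 to -0.44 over the 12 left-out fits).

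Of the kinases, ror2 had the most counts, at 47.4, 43.8 and 44 CPM in the wild-type sham and 50.1, 39.8 and 41.0 CPM in the wild-type 7dpa libraries. ror2 was at 67.1, 65.4 and 65.2 CPM in the mvp-/- sham and 38.8, 40.8 and 40.5 CPM in the mvp-/- 7dpa libraries. The mvp-/- sham libraries lay above all others. With resection ror2 had log2 fold changes of -0.05 ± 0.08 (SE, edgeR adjusted p = 0.65) in wild-type and -0.72 ± 0.08 (SE, edgeR adjusted p = 4.7e-05) in mvp-/- hearts. It was higher by 0.55 ± 0.08 (SE, edgeR adjusted p = 0.00012) in mvp-/- than in wild-type sham hearts. ror1 was at 0.859, 1.05 and 1.13 CPM in the wild-type sham and 3.46, 2.60 and 2.80 CPM in the wild-type 7dpa libraries. ror1 was at 1.79, 1.82 and 1.25 CPM in the mvp-/- sham and 3.91, 3.92 and 3.88 CPM in the mvp-/- 7dpa libraries. Every 7dpa library was higher than every sham library in both genotypes, with a rise of 1.53 ± 0.20 (SE, edgeR adjusted p = 2.8e-05) in the wild type and 1.27 ± 0.19 (SE, edgeR adjusted p = 0.00034) in the mutant. Between the sham groups ror1 was higher in the mutant by 0.66 ± 0.22 (SE, edgeR adjusted p = 0.021). Of the co-receptors, lrp5 was lower with resection, with log2 fold changes of -0.47 ± 0.18 (SE, edgeR adjusted p = 0.037) in wild-type and -0.67 ± 0.19 (SE, edgeR adjusted p = 0.017) in mvp-/- hearts. In the wild type replicate 1 at 7dpa, at 7.79 CPM, was just below the lowest sham library, at 7.84 CPM. lrp6, at 0.220 to 1.20 CPM, passed no test. The lrp5 call was lost in the wild type without wild-type sham replicate 1, 2 or 3 or wild-type 7dpa replicate 2 or 3 and under a fit of only the groups compared (log2 -0.73 to -0.32 over the 12 left-out fits) and in the mutant without mvp-/- sham replicate 1 or 2 or mvp-/- 7dpa replicate 1 (log2 -0.78 to -0.59 over the 12 left-out fits). The sham difference of ror1 was lost without wild-type sham replicate 1 or mvp-/- sham replicate 1 or 2 and under DESeq2's Wald test (log2 0.56 to 0.83 over the 12 left-out fits).

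**Figure D3:**
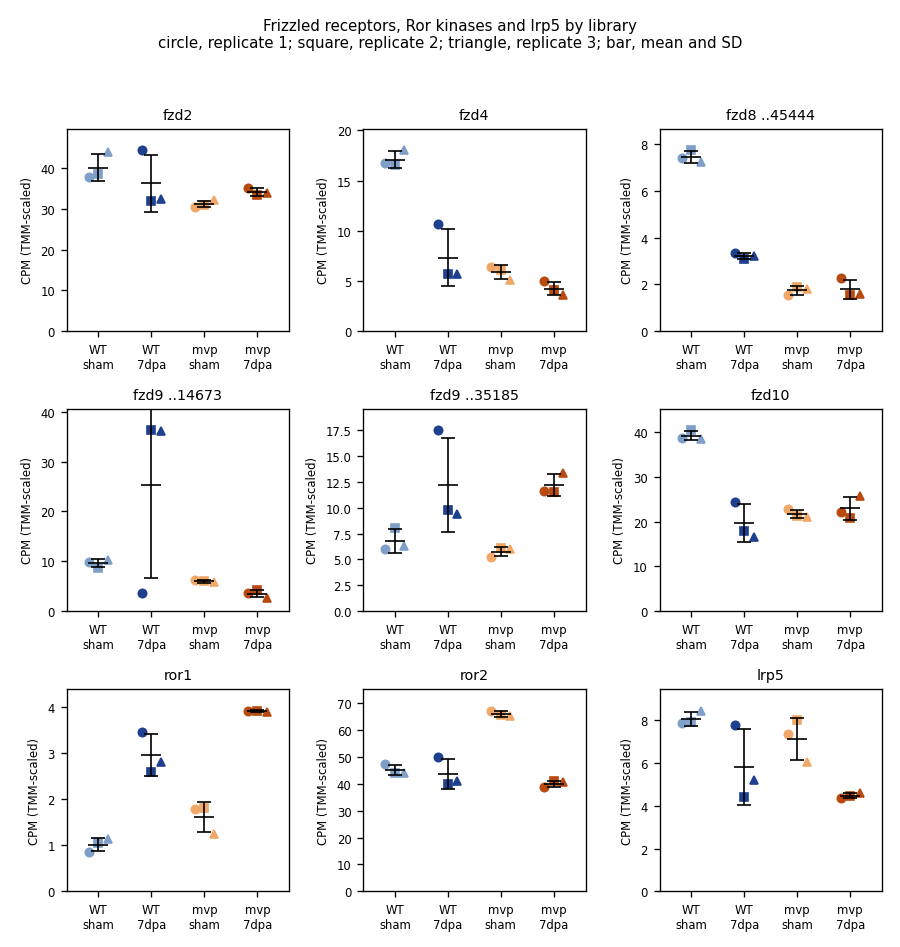
CPM (TMM-scaled, linear axes from 0) of 6 Frizzled genes, ror1, ror2 and lrp5 in each of the 12 libraries by group, with the mean and SD of 3 libraries. fzd4, fzd8 and fzd10 are highest in wild-type sham libraries, ror1 is higher in every 7dpa than in every sham library, and fzd9 (ENSDARG00000014673) has wild-type 7dpa replicate 1 at 3.67 CPM beside 36.3 and 36.1 CPM.

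The kept secreted antagonists that were called in the wild type moved in 1 direction. With resection 9 of 11 were higher and none was lower, against 31.6% and 27.8% of all genes. The median log2 fold change was 1.34 over the 11 beside 0.0078 over all tested genes. Roles were assigned by symbol, and the 9 include both dkk3 genes. The call of dkk3 (ENSDARG00000103591) was lost without wild-type 7dpa replicate 1. Without that library 10 of the 11 were higher and none was lower, against 35.2% and 31.9% of all genes. The count minimum enters these values, which are a description and not a test. sfrp2l, left out by it, had 9, 19 and 11 counts in wild-type sham and 3, 0 and 4 in wild-type 7dpa libraries. dkk1b, notum2 and sfrp1 (ENSDARG00000057678) reached the minimum in 9 libraries. sfrp2 reached it in 4, with 16, 15 and 21 counts in mvp-/- 7dpa libraries and 11 in wild-type 7dpa replicate 2. In the mutant 6 of 11, sfrp2 among them, were higher and 1, notum2, was lower, against 12.9% and 13.4% of all genes. The median there was 0.55, beside 0.018 over all tested genes. Between the sham groups 5 were higher in the mutant and none was lower, against 25.3% and 24.2% of all genes.

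dkk1b, a dickkopf gene, and notum1b rose in both genotypes. dkk1b was at 0.322, 0.703 and 0.206 CPM in the wild-type sham and 4.02, 3.598 and 4.46 CPM in the wild-type 7dpa libraries. dkk1b was at 0.410, 0.556 and 0.555 CPM in the mvp-/- sham and 4.34, 3.80 and 4.25 CPM in the mvp-/- 7dpa libraries. All 7dpa libraries were above all sham libraries, which held 4 to 16 counts. It rose by 3.24 ± 0.29 (SE, edgeR adjusted p = 9.2e-07) in the wild type and by 3.01 ± 0.28 (SE, edgeR adjusted p = 9.3e-06) in the mutant, and the difference of these responses was -0.23 ± 0.43 (SE, edgeR adjusted p = 0.72). notum1b was at 5.10, 5.27 and 5.92 CPM in the wild-type sham and 15.1, 12.4 and 13.8 CPM in the wild-type 7dpa libraries. notum1b was at 4.62, 4.65 and 4.67 CPM in the mvp-/- sham and 11.4, 13.9 and 13.5 CPM in the mvp-/- 7dpa libraries. Its levels in sham and in 7dpa libraries were separate in each genotype, with rises of 1.34 ± 0.12 (SE, edgeR adjusted p = 6.7e-07) and 1.48 ± 0.12 (SE, edgeR adjusted p = 2.4e-06), and the difference of responses was 0.14 ± 0.17 (SE, edgeR adjusted p = 0.56).

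notum2, a further gene of the Notum family, had the largest change with resection among the 44 genes in the wild type. The wild-type libraries held 0, 5 and 5 counts of it after sham surgery and 315, 169 and 274 at 7dpa. The mvp-/- libraries held 270, 263 and 291 and 164, 154 and 177. Scaled, it was at 0, 0.220 and 0.257 CPM in the wild-type sham and 11, 6.76 and 8.72 CPM in the wild-type 7dpa libraries. notum2 was at 13.8, 13.3 and 13.5 CPM in the mvp-/- sham and 6.36, 6.35 and 7.24 CPM in the mvp-/- 7dpa libraries. It was close to the floor in the wild-type sham hearts alone, and the mvp-/- sham libraries were the highest of all. On the log2 scale it changed with resection by 5.71 ± 0.36 (SE, edgeR adjusted p = 3.5e-08) in the wild type and by -1.02 ± 0.21 (SE, edgeR adjusted p = 0.0032) in the mutant. Between the sham groups it was higher in the mutant by 6.32 ± 0.35 (SE, edgeR adjusted p = 1e-08). At 7dpa the log2 fold change between the genotypes was -0.41 ± 0.21 (SE, edgeR adjusted p = 0.19), which did not pass the test. The size of a fold against so few sham counts is uncertain.

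sfrp5 was at 15.6, 15.2 and 13.9 CPM in the wild-type sham and 48.9, 38.0 and 37.2 CPM in the wild-type 7dpa libraries. sfrp5 was at 27.4, 27.2 and 27.9 CPM in the mvp-/- sham and 32.1, 31.7 and 34.2 CPM in the mvp-/- 7dpa libraries. The wild-type sham libraries were the lowest and the wild-type 7dpa libraries the highest, with both mvp-/- groups between them. With resection the log2 fold change of sfrp5 was 1.47 ± 0.10 (SE, edgeR adjusted p = 9.1e-08) in wild-type and 0.25 ± 0.10 (SE, edgeR adjusted p = 0.083) in mvp-/- hearts. In the mutant it was higher after sham surgery, at 0.89 ± 0.10 (SE, edgeR adjusted p = 1.3e-05), and lower at 7dpa, at -0.34 ± 0.10 (SE, edgeR adjusted p = 0.027). sfrp1 (ENSDARG00000057678), with 7, 6 and 9 counts in wild-type sham libraries, was at 0.376, 0.264 and 0.463 CPM in the wild-type sham and 1.19, 0.919 and 1.02 CPM in the wild-type 7dpa libraries. sfrp1 was at 0.923, 1.31 and 1.53 CPM in the mvp-/- sham and 1.36, 0.949 and 1.51 CPM in the mvp-/- 7dpa libraries. Only its wild-type sham libraries lay apart from the rest. Its log2 fold changes with resection were 1.51 ± 0.32 (SE, edgeR adjusted p = 0.0014) in wild-type and 0.02 ± 0.27 (SE, edgeR adjusted p = 0.98) in mvp-/- hearts. The sham level was higher in the mutant by 1.78 ± 0.33 (SE, edgeR adjusted p = 0.00056).

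frzb, a secreted Frizzled-related protein and the antagonist with the most counts, was at 51.6, 49.6 and 49.4 CPM in the wild-type sham and 79.0, 64.7 and 65.8 CPM in the wild-type 7dpa libraries. frzb was at 62.0, 63.8 and 55.7 CPM in the mvp-/- sham and 74.1, 78.1 and 71.5 CPM in the mvp-/- 7dpa libraries. The changes were small, 0.48 ± 0.08 (SE, edgeR adjusted p = 0.00032) in the wild type, 0.30 ± 0.08 (SE, edgeR adjusted p = 0.018) in the mutant and 0.27 ± 0.08 (SE, edgeR adjusted p = 0.018) between the sham groups. dkk3 (ENSDARG00000070683), a divergent dickkopf gene, was at 13.4, 12.4 and 14.0 CPM in the wild-type sham and 54.4, 40.7 and 36.7 CPM in the wild-type 7dpa libraries. dkk3 was at 18.9, 20.6 and 22.2 CPM in the mvp-/- sham and 47.3, 41.8 and 51.8 CPM in the mvp-/- 7dpa libraries. All 7dpa libraries of both genotypes were above all sham libraries. It rose by 1.73 ± 0.14 (SE, edgeR adjusted p = 3.2e-07) in the wild type and by 1.19 ± 0.13 (SE, edgeR adjusted p = 3.8e-05) in the mutant, and its sham level was higher in the mutant by 0.64 ± 0.14 (SE, edgeR adjusted p = 0.0021).

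wif1 was at 1.07, 1.098 and 0.721 CPM in the wild-type sham and 2.23, 1.52 and 2.01 CPM in the wild-type 7dpa libraries. wif1 was at 0.462, 0.758 and 1.25 CPM in the mvp-/- sham and 2.67, 2.93 and 2.78 CPM in the mvp-/- 7dpa libraries. The mvp-/- 7dpa libraries were the highest and the sham groups of the genotypes overlapped. It rose by 0.99 ± 0.29 (SE, edgeR adjusted p = 0.011) in the wild type and by 1.74 ± 0.30 (SE, edgeR adjusted p = 0.00086) in the mutant. sfrp2 had at most 21 counts and was at 0.107, 0.220 and 0.0515 CPM in the wild-type sham and 0.105, 0.440 and 0.286 CPM in the wild-type 7dpa libraries. sfrp2 was at 0.308, 0.101 and 0.0925 CPM in the mvp-/- sham and 0.620, 0.619 and 0.859 CPM in the mvp-/- 7dpa libraries. Its mvp-/- 7dpa libraries lay above all others, and it was higher with resection in the mutant by 2.05 ± 0.56 (SE, edgeR adjusted p = 0.016), while a log2 fold change of 1.03 in the wild type did not pass the test (edgeR adjusted p = 0.19). sfrp2 reached the count minimum only in the mvp-/- 7dpa libraries and wild-type 7dpa replicate 2, so its rise in the mutant is a description and not a test. The other dkk3 gene (ENSDARG00000103591) was at 0.483, 0.703 and 0.309 CPM in wild-type sham and 2.16, 0.7995 and 0.764 CPM in wild-type 7dpa libraries and had a log2 fold change of 1.29 ± 0.46 (SE, edgeR adjusted p = 0.027). This call was lost without wild-type sham replicate 1 or 3 or wild-type 7dpa replicate 1 and under a fit of only the groups compared (log2 0.63 to 1.64 over the 12 left-out fits). This dkk3 gene was at 0.564, 0.505 and 0.786 CPM in mvp-/- sham and 0.543, 0.536 and 0.900 CPM in mvp-/- 7dpa libraries. The other sfrp1 gene (ENSDARG00000035521) passed no test.

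Several of these antagonist calls were lost when 1 library, often any of several, was left out. The rise of wif1 in the wild type was lost without wild-type sham replicate 3 (log2 0.82 to 1.13 over the 12 left-out fits), that of sfrp2 in the mutant without mvp-/- sham replicate 2 or 3 or mvp-/- 7dpa replicate 3 (log2 1.75 to 2.79 over the 12 left-out fits), that of frzb in the mutant without mvp-/- sham replicate 3 or mvp-/- 7dpa replicate 2 (log2 0.24 to 0.34 over the 12 left-out fits) and the sham difference of frzb without wild-type sham replicate 3 or mvp-/- sham replicate 1 or 2 (log2 0.23 to 0.33 over the 12 left-out fits). The 7dpa difference of sfrp5 was lost without mvp-/- 7dpa replicate 1 or 2 and under a fit of only the groups compared (log2 -0.42 to -0.22 over the 12 left-out fits).

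Summed markers of several cell types were, like notum2, sfrp5 and sfrp1 (ENSDARG00000057678), lowest in the wild-type sham libraries. The 8 genes of the fibroblast and matrix list were at 374 to 433 CPM in sum in wild-type sham, 2226 to 3631 in wild-type 7dpa, 1061 to 1098 in mvp-/- sham and 2498 to 2601 in mvp-/- 7dpa libraries. Of these 8, 7 were higher with resection in the wild type and 8 in the mutant, and 6 were higher and 2 lower in mvp-/- than in wild-type sham hearts. The 6 epicardial markers summed to 154 to 171 CPM in wild-type sham, 379 to 394 in wild-type 7dpa, 294 to 318 in mvp-/- sham and 490 to 495 in mvp-/- 7dpa libraries. Of the 5 that were tested, 5 were higher with resection in the wild type and 4 in the mutant, and 3 were higher and 1 lower in mvp-/- than in wild-type sham hearts. One of the 6, upk3b, did not exceed 0.412 CPM. Smooth muscle and bulbus arteriosus markers were at 131 to 139, 392 to 696, 313 to 326 and 444 to 467 CPM in the same order of groups. Of the 8 tested, 6 were higher with resection in the wild type and 3 in the mutant, and between the sham groups 5 were higher and 1 lower in the mutant. The skin and gill epithelium list was at 287 to 294, 452 to 667, 490 to 506 and 584 to 627 CPM, nearly all of it krt4, with epcam at no more than 0.0825 CPM. The liver list was at 26.7 to 29.4, 203 to 251, 77.4 to 83.4 and 282 to 293 CPM, nearly all of it tfa, with fabp10a at no more than 0.155 CPM. Erythrocyte markers set wild-type 7dpa replicate 1 apart, at 511 CPM beside 167 and 174 CPM in the other replicates, and were at 148 to 196 CPM in wild-type sham, 243 to 257 in mvp-/- sham and 519 to 575 in mvp-/- 7dpa libraries. Other lists had other patterns. Cardiomyocyte sums were lower at 7dpa than after sham surgery in both genotypes. Endothelial and endocardial markers were at 1044 to 1050, 1066 to 1207, 1772 to 1882 and 1372 to 1426 CPM in the first order of groups. Most of this sum was spock3, with means of 726, 887, 1474 and 1112 CPM. Of the 5 markers, 1 was higher and 2 lower with resection in the wild type, and 3 were lower and none higher in the mutant. Between the sham groups 3 were higher and 1 lower in the mutant. Valve markers were at 54.3 to 58.6, 44.2 to 75.7, 44.5 to 48.1 and 47.8 to 49.3 CPM, and neuron and glia markers were lowest in mvp-/- sham libraries. The part of these cell populations in the values of the Wnt genes was not tested.

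**Figure D4:**
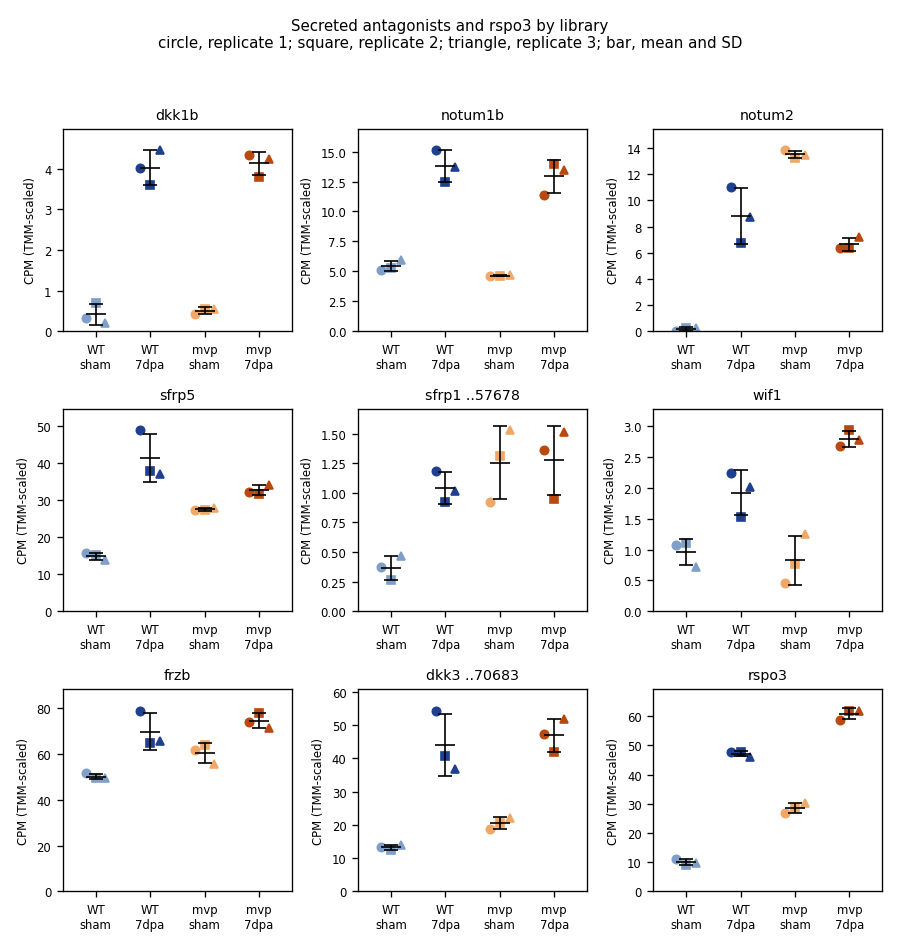
CPM (TMM-scaled, linear axes from 0) of 8 secreted antagonists and of rspo3 in each of the 12 libraries by group, with the mean and SD of 3 libraries. dkk1b and notum1b have separate sham and 7dpa levels in both genotypes, whereas notum2, sfrp5 and rspo3 are lower in the wild-type sham libraries than in any other group.

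Of the agonists, rspo3 had the most counts and was the gene with the smallest adjusted p in the wild-type response among the 44. R-spondin 3 is known in the mouse for its part in the growth of coronary vessels. rspo3 was at 11.2, 9.05 and 9.73 CPM in the wild-type sham and 47.8, 47.7 and 46.0 CPM in the wild-type 7dpa libraries. rspo3 was at 26.8, 28.7 and 30.2 CPM in the mvp-/- sham and 58.6, 61.9 and 61.9 CPM in the mvp-/- 7dpa libraries. The 4 groups did not overlap, and rose from wild-type sham through mvp-/- sham and wild-type 7dpa to mvp-/- 7dpa. Resection raised it by 2.24 ± 0.08 (SE, edgeR adjusted p = 3.9e-10) in wild-type and by 1.09 ± 0.08 (SE, edgeR adjusted p = 1e-06) in mvp-/- hearts. The mutant was higher by 1.52 ± 0.08 (SE, edgeR adjusted p = 1.1e-08) after sham surgery and by 0.37 ± 0.08 (SE, edgeR adjusted p = 0.0052) at 7dpa. rspo1 was lower with resection in the mutant, at -0.59 ± 0.15 (SE, edgeR adjusted p = 0.012), from 10.001, 7.93 and 7.96 to 6.05, 5.32 and 5.77 CPM, a call lost without mvp-/- sham replicate 1 (log2 -0.65 to -0.48 over the 12 left-out fits). Its change of -0.33 in the wild type did not pass the test. rspo2 was at 0.419 to 1.03 CPM and passed no test.

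Of the 5 genes inside the cell, 2 were lower with resection in the wild type and none was higher, against 27.8% and 31.6% of all genes. None was called in the mutant, where 12.9% of all genes were called higher and 13.4% lower. axin1, a scaffold of the complex that degrades beta-catenin and the member of this group with the most counts, was at 20.2, 21.0 and 21.7 CPM in the wild-type sham and 21.2, 18.9 and 18.9 CPM in the wild-type 7dpa libraries. axin1 was at 20.1, 19.6 and 24.3 CPM in the mvp-/- sham and 22.8, 20.7 and 24.0 CPM in the mvp-/- 7dpa libraries. No comparison called axin1 in the fit to all libraries, but without wild-type 7dpa replicate 1 it was called higher in the mutant at 7dpa. axin2, a feedback target often used as a readout of beta-catenin activity, was at 18.4, 22.6 and 19.3 CPM in the wild-type sham and 25.8, 17.9 and 18.4 CPM in the wild-type 7dpa libraries. axin2 was at 14.3, 14.1 and 12.9 CPM in the mvp-/- sham and 14.2, 14.0 and 16.9 CPM in the mvp-/- 7dpa libraries. The log2 fold change with resection was 0.04 ± 0.14 (SE, edgeR adjusted p = 0.82) in wild-type and 0.13 ± 0.14 (SE, edgeR adjusted p = 0.55) in mvp-/- hearts, and neither passed the test. It was lower in the mutant, with log2 fold changes of -0.55 ± 0.14 (SE, edgeR adjusted p = 0.0062) after sham surgery and -0.46 ± 0.14 (SE, edgeR adjusted p = 0.035) at 7dpa, where every mvp-/- library was below every wild-type library. Without wild-type 7dpa replicate 1, the highest library at 25.8 CPM, the 7dpa difference was -0.29 with an edgeR adjusted p of 0.020. The 7dpa call was lost without wild-type sham replicate 3, mvp-/- sham replicate 1, 2 or 3 or mvp-/- 7dpa replicate 1 or 2 and under a replicate block or a fit of only the groups compared (log2 -0.56 to -0.29 over the 12 left-out fits).

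tcf7l2, a nuclear partner of beta-catenin, was lower with resection in the wild type, at -0.88 ± 0.14 (SE, edgeR adjusted p = 0.0001), and lower in mvp-/- than in wild-type sham hearts, at -0.84 ± 0.14 (SE, edgeR adjusted p = 0.00023). It was at 9.88, 8.83 and 10.6 CPM in the wild-type sham and 5.80, 4.64 and 5.41 CPM in the wild-type 7dpa libraries. tcf7l2 was at 5.49, 5.05 and 5.78 CPM in the mvp-/- sham and 4.65, 5.32 and 4.05 CPM in the mvp-/- 7dpa libraries. Its wild-type sham libraries stood above all others, and in the mutant the change was -0.22 ± 0.14 (SE, edgeR adjusted p = 0.28). tcf7l1b was lower with resection in the wild type, at -0.84 ± 0.24 (SE, edgeR adjusted p = 0.0081), a call lost without wild-type sham replicate 1 (log2 -1.001 to -0.53 over the 12 left-out fits), and tcf7l1 passed no test, at 16.3 to 20.7 CPM.

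The responses of both genotypes were compared directly in the difference of injury responses, mvp-/- minus wild type. It was below 0 for notum2 at -6.73 ± 0.42 (SE, edgeR adjusted p = 1.3e-07), wnt16 at -1.58 ± 0.56 (SE, edgeR adjusted p = 0.044), sfrp1 (ENSDARG00000057678) at -1.49 ± 0.42 (SE, edgeR adjusted p = 0.016) and sfrp5 at -1.23 ± 0.14 (SE, edgeR adjusted p = 2.9e-05). Further values below 0 were -1.21 ± 0.37 (SE, edgeR adjusted p = 0.024) for wnt4, -1.15 ± 0.11 (SE, edgeR adjusted p = 7.2e-06) for rspo3, -1.10 ± 0.19 (SE, edgeR adjusted p = 0.00083) for wnt2b, -0.67 ± 0.12 (SE, edgeR adjusted p = 0.00079) for ror2 and -0.54 ± 0.19 (SE, edgeR adjusted p = 0.042) for dkk3 (ENSDARG00000070683). It was above 0 for wnt2ba at 2.77 ± 0.41 (SE, edgeR adjusted p = 0.00021), wnt7a (ENSDARG00000044827) at 1.93 ± 0.40 (SE, edgeR adjusted p = 0.0026), fzd8 (ENSDARG00000045444) at 1.26 ± 0.23 (SE, edgeR adjusted p = 0.0013), fzd10 at 1.08 ± 0.18 (SE, edgeR adjusted p = 0.00054) and tcf7l2 at 0.66 ± 0.20 (SE, edgeR adjusted p = 0.019). Each of these genes was also called between the sham groups, whereas at 7dpa only wnt2ba, sfrp5, fzd8 (ENSDARG00000045444) and rspo3 were. The sham libraries of both genotypes enter each of these values.

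The weakest of these differences were those of wnt16, dkk3 and wnt4. The call of wnt16 was lost in every fit that left out 1 library except those without wild-type sham replicate 2, wild-type 7dpa replicate 1 or mvp-/- sham replicate 2 and under DESeq2's Wald test, no filter on low counts or a replicate block (log2 -2.14 to -1.18 over the 12 left-out fits). That of dkk3 was lost without wild-type sham replicate 1, 2 or 3, mvp-/- sham replicate 2 or 3 or mvp-/- 7dpa replicate 1 or 2 (log2 -0.66 to -0.37 over the 12 left-out fits), that of wnt4 without wild-type sham replicate 1 or 3, wild-type 7dpa replicate 2 or 3, mvp-/- sham replicate 3 or mvp-/- 7dpa replicate 3 (log2 -1.54 to -0.99 over the 12 left-out fits) and that of tcf7l2 without mvp-/- 7dpa replicate 2 (log2 0.55 to 0.75 over the 12 left-out fits).

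The comparison of genotypes at 7dpa depended on wild-type 7dpa replicate 1. With all libraries, rspo3 and wnt2ba were higher and fzd4, fzd8, fzd9 (ENSDARG00000014673), sfrp5 and axin2 lower in the mutant. Without that library 11 were higher and 5 lower, where 14.7% of 17074 tested genes were called higher and 20.2% lower. The genes then called in addition were all higher in the mutant, among them wif1 at 0.63, tcf7l1b at 0.61, ror1 at 0.51, fzd10 at 0.39 and frzb at 0.17 on the log2 scale. In the difference of injury responses 20 of the 44 were called without that library, 10 above and 10 below 0, against 21.9% and 28% of all genes. Those added were fzd2, fzd4, fzd9 (ENSDARG00000035185), tcf7l1b and wnt7ba above 0 and fzd9 (ENSDARG00000014673) below 0. With only the 7dpa groups fitted 1 gene was higher and 1 lower in the mutant, against 4.38% of all genes in either direction.

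The rest of the pathway was followed in a list of carriers, cytoplasmic, nuclear and planar polarity genes and known targets, of which 59 genes had enough counts to be tested. With resection 11 were higher and 26 lower in the wild type, against 31.6% and 27.8% of all genes, and 3 were higher and 9 lower in the mutant, against 12.9% and 13.4%. For the sham groups 14 were higher and 19 lower in the mutant, against 25.3% and 24.2%, and at 7dpa 7 were higher and 1 lower, against 8.94% and 10.6%. The difference of responses was above 0 for 13 and below 0 for 6, against 15.2% and 19.9%. Over the 59 genes the median log2 fold change was -0.28 in wild-type and -0.046 in mvp-/- hearts.

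The 8 of these genes with the smallest adjusted p in the difference of responses are named here. wls, which carries Wnt proteins to the cell surface, was at 155, 162 and 147 CPM in the wild-type sham and 105, 80.9 and 77.9 CPM in the wild-type 7dpa libraries. wls was at 86.1, 89.4 and 93.7 CPM in the mvp-/- sham and 98.3, 97.6 and 103 CPM in the mvp-/- 7dpa libraries. The wild-type sham libraries were the highest. With resection the log2 fold change of wls was -0.81 ± 0.10 (SE, edgeR adjusted p = 1.3e-05) in wild-type and 0.15 ± 0.10 (SE, edgeR adjusted p = 0.28) in mvp-/- hearts. nkd1, a feedback inhibitor that binds Dishevelled, was at 3.76, 4.17 and 4.22 CPM in the wild-type sham and 2.06, 1.68 and 1.37 CPM in the wild-type 7dpa libraries. nkd1 was at 1.59, 1.21 and 1.02 CPM in the mvp-/- sham and 1.78, 1.40 and 1.96 CPM in the mvp-/- 7dpa libraries. Its wild-type sham libraries were likewise apart from the rest. Its log2 fold change was -1.25 ± 0.21 (SE, edgeR adjusted p = 0.00019) in wild-type and 0.43 ± 0.23 (SE, edgeR adjusted p = 0.19) in mvp-/- hearts.

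kremen1, a receptor for dickkopf proteins, had log2 fold changes of 1.76 ± 0.20 (SE, edgeR adjusted p = 7.9e-06) in wild-type and -0.10 ± 0.18 (SE, edgeR adjusted p = 0.72) in mvp-/- hearts. gsk3bb, a kinase gene of the type that marks beta-catenin for degradation, had 2.71 ± 0.34 (SE, edgeR adjusted p = 2.1e-05) and 0.01 ± 0.27 (SE, edgeR adjusted p = 0.99). Both were lowest in the wild-type sham libraries, kremen1 at 1.07, 0.879 and 0.824 CPM and gsk3bb at 0.269, 0.307 and 0.206 CPM, with all other libraries at 2.104 to 3.67 and 1.31 to 2.27 CPM. csnk1da, a casein kinase gene, rose by 0.65 ± 0.08 (SE, edgeR adjusted p = 1.8e-05) in the wild type, beside 0.06 ± 0.08 (SE, edgeR adjusted p = 0.63) in the mutant. The tankyrase genes, whose products promote the degradation of Axin, were lower in the wild type, with log2 fold changes of -0.85 (ENSDARG00000062897) and -1.02 (ENSDARG00000077650), beside -0.38 and -0.11 in the mutant. sall4, a transcription factor gene listed as a Wnt target, was at 1.504, 1.19 and 1.70 CPM in wild-type sham libraries and at 0 to 0.248 CPM in all others, so no fold change is given for it.

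**Figure D5:**
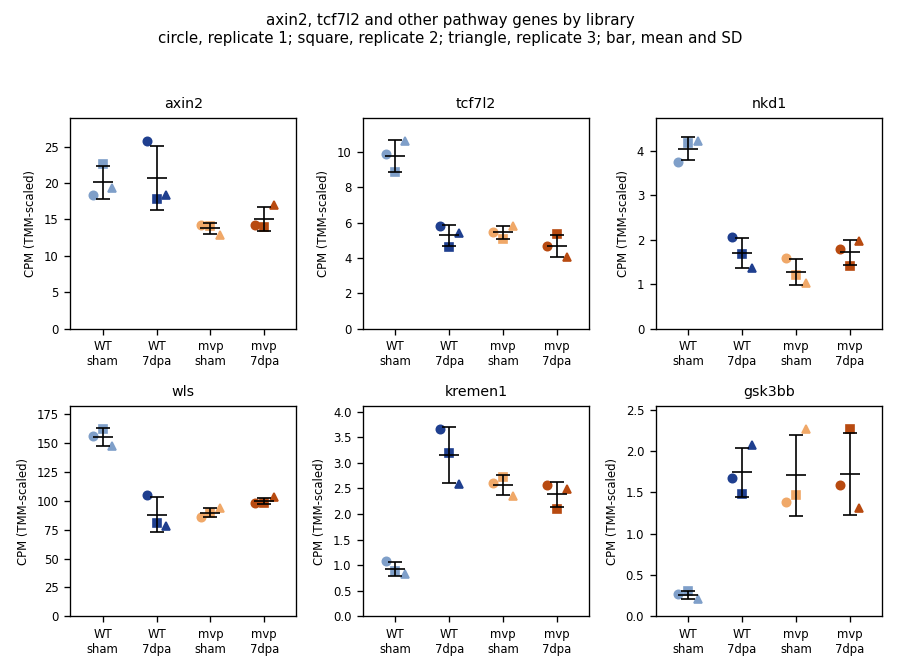
CPM (TMM-scaled, linear axes from 0) of axin2, tcf7l2, nkd1, wls, kremen1 and gsk3bb in each of the 12 libraries by group, with the mean and SD of 3 libraries. tcf7l2, nkd1 and wls are highest and kremen1 and gsk3bb lowest in the wild-type sham libraries, while axin2 is lower in both mvp-/- groups.

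The remaining 26 genes of the 70 did not reach 10 counts in 3 libraries, and none was tested. Of these, 4 were at 0 in every library, wnt5a, wnt8b and both wnt8a genes, and 17 were at or under 3 counts in every library, those 4 included. lef1, a nuclear partner of beta-catenin and a target of the pathway, had 1, 4 and 6 counts in wild-type sham and 1, 6 and 1 in wild-type 7dpa libraries. In mvp-/- hearts lef1 had 1, 2 and 3 counts after sham surgery and 0, 8 and 6 at 7dpa. The gene listed as notum (ENSDARG00000031126) had 0 to 1 counts, and no gene was listed as notum1a. Just below the minimum, sfrp2l had 9, 19 and 11 counts in wild-type sham hearts and 0 to 4 in the others, so that its wild-type sham libraries lay above all other libraries, tcf7 had 10 and 17 counts in wild-type 7dpa replicates 1 and 2, and wnt9a and wnt4b each reached 10 counts in 2 libraries. Just above it were sfrp2, with 10 or more counts in 4 libraries, and wnt7ba, in 8. The counts of the genes left out are given as a description.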

How the data were processed

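Ventricle RNA of 12 samples was sequenced, 3 in each of 4 groups taken from the sample labels. Per the paper's methods and the submitters' processing notes, the authors mapped reads with HISAT2 2.1.0 to GRCz11 and counted them per Ensembl gene with featureCounts 1.6.0, and they deposited the whole-number read counts without normalization. Strand setting and the treatment of reads shared by near-identical genes are not given in the sources used here, so the 11 kept genes that share a symbol with another identifier may have split or lost reads. Symbols came from a gene name table (29201 of 32520 identifiers matched) and are printed in lower case, with the identifier where 2 genes share a symbol. No coordinates, sequences or gene lengths were used, so levels are not compared between genes.

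The edgeR package (4.0.16, in R 4.3.3) was run on these counts (filterByExpr by group, TMM factors of 0.8537 to 1.185, quasi-likelihood fit of group means to all 12 libraries) with Benjamini-Hochberg adjustment over 16604 genes and a threshold of 0.05. The SE given with a log2 fold change was derived from the test, as the size of the change divided by the square root of the F statistic. CPM values are TMM-scaled, with factors of 0.854 to 0.912 in the sham and 1.087 to 1.185 in the 7dpa libraries. Alternatives were RLE size factors, DESeq2 1.42.0, other filters on low counts, a replicate block, fits of only the groups compared and leaving out each library. Values in every library are given for genes called with a log2 fold change of at least 1 in size, the gene with the most counts in each role, and axin2, lef1 and notum1b. Further genes were chosen for such values after theirs had been seen. The genes, marker lists and pathway lists were chosen with earlier results of these data known. Total counts were 21356163 to 26684651 per library (median 22223910), which limits mainly genes near 10 counts.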

Additional observations from a re-analysis of the deposited data

Results flagged for a closer look

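The change with resection differed between the genotypes for 14 of the 44 genes (difference of injury responses, mvp-/- minus wild type, log2 scale, edgeR adjusted p under 0.05, against 15.2% of all tested genes called above 0 and 19.9% below 0). Among the antagonists the difference was -6.73 for notum2, -1.49 for sfrp1 (ENSDARG00000057678), -1.23 for sfrp5 and -0.54 for dkk3 (ENSDARG00000070683). Among the ligands it was 2.77 for wnt2ba, 1.93 for wnt7a (ENSDARG00000044827), -1.10 for wnt2b, -1.21 for wnt4 and -1.58 for wnt16. Among the receptors it was 1.08 for fzd10, 1.26 for fzd8 (ENSDARG00000045444) and -0.67 for ror2. For the agonist rspo3 it was -1.15, and for the nuclear factor tcf7l2 it was 0.66. Of the 14 genes, 5 were above and 9 below 0, shares close to those of all tested genes. All 14 were also called between the sham groups, whereas at 7dpa only wnt2ba, sfrp5, fzd8 (ENSDARG00000045444) and rspo3 were. The sham libraries of both genotypes enter each of these differences.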

How the results depend on the processing

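The numbers of the 44 genes called stayed within 1.5 times of those reported under RLE size factors, DESeq2, both other filters and the replicate block in all 5 comparisons. With only the mvp-/- groups fitted, 24 were called with resection, 16 higher and 8 lower (7072 of 15537 genes), against 16, 12 and 4 with all libraries (4372 of 16604), and 23, 15 and 8 without wild-type 7dpa replicate 1 (7039 of 17074). In the wild type and between the sham groups such fits called 24 and 22, against 28 and 21. At 7dpa, 2 genes differed between genotypes where only those groups were fitted, against 7 with all libraries, and from 3 to 16 did when each library was left out in turn, 16 of them without wild-type 7dpa replicate 1, 4 without mvp-/- 7dpa replicate 1 and 3 without mvp-/- 7dpa replicate 2. The cause was not tested. With the replicate number as a block 28 genes were called in the wild type, 16 in the mutant, 19 between the sham groups, 6 at 7dpa and 14 in the difference of responses. Libraries with the same number did not deviate together (correlations from -0.049 to 0.060), so the numbers were not used to pair them. Of 1533 recomputed values of the 86 called fold changes, 1409 kept the call, 124 lost it and 0 reversed. The call was kept in every refit for 61 of the 86 and lost in 10 or more for 4, the sham difference of fzd1 (14 of 18), the wild-type response of fzd9 (ENSDARG00000014673, 13 of 18), the 7dpa difference of wnt2ba (12 of 18) and the difference of responses of wnt16 (12 of 17). Depth limits the genes near the minimum, such as sfrp2, wnt7ba and wnt16.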
